A study of Rattus norvegicus with 40 samples.

Results

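Rat INS-1E cells were compared after 24 and 36 h with and without cytokines. INS-1E is a clonal insulin-secreting line derived from a rat insulinoma and stands in for pancreatic beta cells, so nothing here speaks to other islet cells or to adult tissue. The comparison uses 6 of the 40 arrays of the series, taken by their titles. They are 2 arrays of cells given cytokine for 24 h, 2 of cells given cytokine for 36 h, 1 control array at 24 h and 1 control array at 36 h. The cytokine groups received 10 units/ml of recombinant human IL-1 together with recombinant mouse IFN-γ at 100 units/ml, and the control groups were cultured for the same times without them. The treatment field of the cytokine arrays names IFN-beta in place of IL-1, and the extraction text mentions islets, whereas the series title, treatment protocol and design text give IL-1, and the source and cell line fields give a cell line. Those were followed. Both control arrays are labelled replicate 1, and each cytokine group holds replicates 1 and 2. Total RNA was hybridised to Affymetrix Rat ST arrays. The design text mentions separate occasions, but no label ties an array to one or says that replicates were separate cultures, so every p-value rests on array-to-array spread that may be purely technical.

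IL-1 acts through NF-kB on chemokines, on the inducible nitric oxide synthase Nos2 and on survival genes, and IFN-γ raises the transcription factor IRF1 and acts on antigen presentation and on GTPases that restrict pathogens. In beta cells the pair is a widely used model of the inflammation seen in type 1 diabetes. Nitric oxide and depletion of calcium from the endoplasmic reticulum (ER) are known triggers of ER stress there. Its integrated branch runs from the translation factor eIF2 through the transcription factor ATF4 to CHOP, the product of Ddit3. Genes needed for DNA synthesis are held by E2F factors, and genes needed for mitosis by complexes that bind a cell cycle homology region in their promoters.

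The cells carried beta cell markers. Over the 6 arrays Ins1, the main rodent insulin gene, lay between 13.49 and 14.40 on the log2 scale, and Slc2a2, the glucose transporter of beta cells, between 12.51 and 12.69. Both stood within the top 1 percent of all genes by mean level over the 40 arrays, as did Ins2 and Iapp. Of the 7 beta cell markers listed 5 were measured, without Pdx1 and Chga, and Nkx6-1 stood only at the 64.2 percentile. Leukocyte markers were low: the 5 measured lay at the 10.2 to 26.0 percentile of all genes, with Ptprc and Itgam between 3.87 and 4.35. Some markers of other cells were not: stromal Col1a1 stood at the 52.3 percentile, acinar Cela1 at the 43.2 percentile, and the islet hormone genes Gcg and Ppy at the 78.8 and 46.4 percentile. By limma 0 of 5 leukocyte, 0 of 5 stromal and 0 of 4 acinar or duct markers differed between the treatments. Of the 5 beta cell markers 1 was lower with cytokine, as was 1 of the 3 islet hormone genes. By the same test 5.18% of all genes differed, so 0 of 4 or 5 markers says little. The summed level of the 5 beta cell markers was 58.3 to 59.3 on cytokine arrays and 59.9 to 60.4 on control arrays. The summed level of the 5 leukocyte markers was 21.8 to 22.5 on cytokine arrays and 22.7 to 23.2 on control arrays. The summed level of the 5 stromal markers was 28.0 to 28.7 on cytokine arrays and 27.9 to 28.5 on control arrays. For the 4 acinar or duct markers it was 21.1 to 21.9 with cytokine and 21.8 to 22.9 in controls. For the 3 islet hormone genes it was 18.6 to 19.5 with cytokine and 21.7 to 21.9 in controls. All these sums are of log2 values. Each bulk array averages all cells of a culture, so fewer cells of a kind and less RNA per cell cannot be told apart.

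Promoter sequences from RefSeq (rat assembly GRCr8, 300 bases running from before to just after the annotated start) are shown for genes on which the results below turn. From the mitosis, DNA replication, ATF4 and CHOP, and interferon lists, each gene is the called member with the largest difference whose promoter holds the motif of its list, and Cdk1, the mitotic kinase, was added after its values were seen. Each is printed 5′ to 3′ in lower case with the matches in capitals, on whichever strand they lie. The motif was TTTGAA, the core of the cell cycle homology region, for Anln and Cdk1, TTTNNCGC (E2F) for Mcm5, TGATGNAA (C/EBP-ATF response element) for Trib3 and TTTCNNTTT (interferon-stimulated response element) for Gbp5.
Anln, chr8:29197464-29197763, minus strand: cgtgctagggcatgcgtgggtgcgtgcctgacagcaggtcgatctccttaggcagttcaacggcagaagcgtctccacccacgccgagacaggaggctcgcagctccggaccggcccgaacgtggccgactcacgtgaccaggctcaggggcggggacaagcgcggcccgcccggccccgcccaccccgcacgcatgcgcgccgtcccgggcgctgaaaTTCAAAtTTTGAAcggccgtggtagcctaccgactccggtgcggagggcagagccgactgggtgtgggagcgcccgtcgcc
Cdk1, chr20:19265043-19265342, plus strand: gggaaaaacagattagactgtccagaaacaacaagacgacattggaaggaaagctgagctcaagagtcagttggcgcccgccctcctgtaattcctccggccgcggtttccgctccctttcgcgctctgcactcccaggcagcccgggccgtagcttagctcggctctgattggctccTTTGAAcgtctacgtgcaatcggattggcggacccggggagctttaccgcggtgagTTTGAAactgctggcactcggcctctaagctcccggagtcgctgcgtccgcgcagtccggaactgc
Mcm5, chr19:13488563-13488862, plus strand: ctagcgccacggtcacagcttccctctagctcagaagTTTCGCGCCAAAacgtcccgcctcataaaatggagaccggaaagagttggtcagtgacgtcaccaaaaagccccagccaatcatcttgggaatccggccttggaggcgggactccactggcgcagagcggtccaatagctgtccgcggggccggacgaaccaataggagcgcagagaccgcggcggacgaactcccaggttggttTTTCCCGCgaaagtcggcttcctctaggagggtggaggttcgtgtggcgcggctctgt
Trib3, chr3:161275484-161275783, minus strand: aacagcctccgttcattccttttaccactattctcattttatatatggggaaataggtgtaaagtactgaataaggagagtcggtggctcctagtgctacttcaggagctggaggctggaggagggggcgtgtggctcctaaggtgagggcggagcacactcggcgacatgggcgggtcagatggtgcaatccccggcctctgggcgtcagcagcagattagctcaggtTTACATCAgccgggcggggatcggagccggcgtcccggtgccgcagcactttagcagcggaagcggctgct
Gbp5, chr2:233910749-233911048, plus strand: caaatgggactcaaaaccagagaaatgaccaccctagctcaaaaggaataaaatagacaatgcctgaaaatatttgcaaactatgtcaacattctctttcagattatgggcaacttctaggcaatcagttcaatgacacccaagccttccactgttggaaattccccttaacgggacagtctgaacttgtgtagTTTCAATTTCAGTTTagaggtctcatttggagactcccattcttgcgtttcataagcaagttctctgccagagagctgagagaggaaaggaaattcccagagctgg
The letters TTTGAA occurred on either strand in 28 of 40 mitosis promoters (70.0%), against 18.1% of 27457 rat promoters of the same length. TTTNNCGC was present in 16 of 37 DNA replication promoters (43.2%), against 5.2% of all. TGATGNAA was present in 7 of 29 promoters of ATF4 and CHOP genes (24.1%) and in 7 of 16 tRNA synthetase promoters (43.8%), against 3.8% of all, and 21 of 32 interferon target promoters held TTTCNNTTT (65.6%), against 11.5% of all. Among 391 promoters of genes called higher, 1.5% held TGATGNAA and 20.5% TTTCNNTTT, against 3.0% and 9.5% of genes tested. Among 309 promoters of genes called lower, 26.5% held TTTGAA and 13.6% TTTNNCGC, against 15.3% and 6.9% of genes tested. The list shares of TGATGNAA thus did not extend to the genes called higher as a whole. These matches are a description of letters and not of bound factors.

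The differences at 24 and 36 h were averaged, and this mean was tested with limma on 16587 genes; a gene counts as called where its p-value, adjusted by Benjamini-Hochberg, is under 0.05. By that rule 860 genes were called (5.18%), of which 483 were higher (2.91%) and 377 lower (2.27%) in cytokine-treated cells. Large differences were mostly increases: 183 genes were at least 2-fold higher (1.1%) and 18 at least 2-fold lower (0.109%). The 15 largest increases were in Mx2, Cd74, Ubd, Gbp5, Igtp, Gbp2, Ifi47, Tap1, Serping1, Samd9, Psmb9, RT1-Da, Psmb8, C1r and Cxcl11, genes of interferon defence, antigen presentation and complement. The 15 largest decreases were in Gcg, A1cf, Car8, Igf1, Npy, Slc16a12, Igfbp5, Enpp2, Ugt1a3, Ugt1a7c, Fam111a, Olr220, Anln, Pkm and Fbn2. Leaving out the 24 h control took Olr220 from the calls, at -0.31 in place of -1.08 (limma adjusted p = 0.897), and Pkm, at -0.58 in place of -1.06 (limma adjusted p = 0.618). The median difference over all genes was -0.05, and 60.8% of genes lay below 0. On all 4 cytokine arrays 2077 genes lay above both controls (12.5%) and 3285 below both (19.8%), so a lack of overlap is common in this comparison.

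Most called genes lay on the same side of their control at both times. Of the 483 genes called higher, 480 were above the control of their own time on each of the 4 cytokine arrays, and 372 of the 377 called lower were below it on each. The calls rest on these same arrays, so this is largely built into the selection and is not support. Tested alone, 24 h gave 271 genes higher (1.63%) and 86 lower (0.518%), and 36 h gave 145 higher (0.874%) and 58 lower (0.35%), in all 2.15% of genes at 24 h and 1.22% at 36 h. The difference at 36 h minus that at 24 h was called for 0 genes (0%) by limma, with 466 at an unadjusted p under 0.05 and a smallest adjusted p of 0.176, and 0 by each alternative run. Of the 483 genes called higher, 369 had the larger difference at 24 h, and of the 377 called lower, 191 did. On the second 36 h cytokine array 329 of the 483 higher genes had their lowest cytokine value. Without that array 452 genes were called higher and 301 lower.

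**Figure D1:**
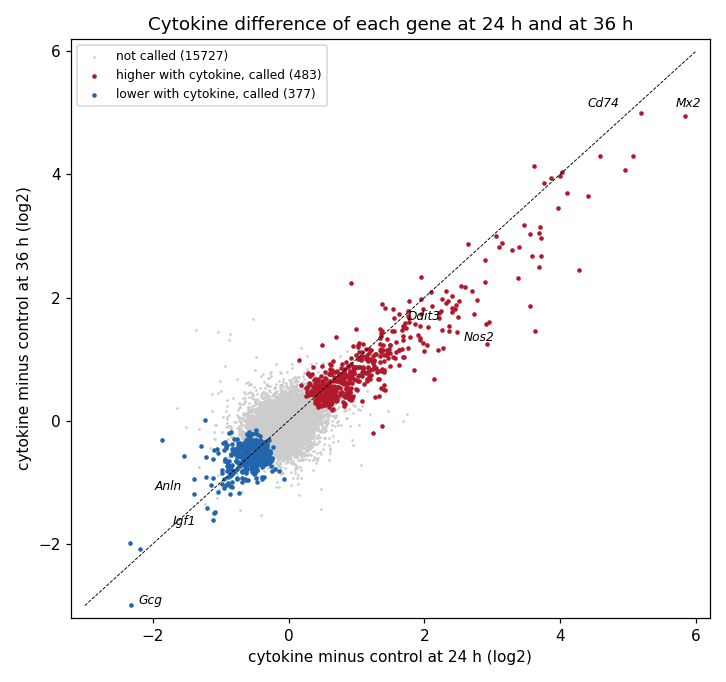
Cytokine minus control on the log2 scale for each of 16587 genes at 24 h (horizontal) and 36 h (vertical), with the 483 genes called higher in red, the 377 called lower in blue and equality as a dashed line. The called genes lie in the upper right and lower left, with many red points below the line, and Gcg lies at -2.33 and -2.98.

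Part of the ATF4 and CHOP response rose at these times. This list and those below were chosen with earlier results of these data known. Their shares are therefore descriptions and not independent support. Of 35 measured members 7 were higher (20.0%, against 2.91% of all genes) and 0 lower, with a median difference of 0.19 against -0.05 for all genes. Ddit3, which encodes the pro-apoptotic factor CHOP, read 8.12 and 8.35 at 24 h and 8.32 and 7.89 at 36 h on the log2 scale with cytokine, against 6.61 and 6.38 in the 24 and 36 h controls. All 4 cytokine values lay above both controls, a 3.2-fold increase (log2 difference 1.68, SE 0.18, limma adjusted p = 2.11e-06). Trib3, a pseudokinase that CHOP and ATF4 switch on and that restrains both ATF4 and AKT, read 6.77, 6.89, 7.38 and 6.16 with cytokine, against 5.29 and 4.96 in controls. Its increase was 3.19-fold (log2 difference 1.67, SE 0.23, limma adjusted p = 9.23e-05), and the 36 h replicates differed by more than the 24 h ones. The Trib3 controls lay near the highest leukocyte marker values, and background was not tested, so the fold is uncertain.

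The other 5 called members moved less. Cebpg, a partner of ATF4, was 9.34, 9.54, 9.33 and 9.29 with cytokine and 8.73 and 8.66 in controls (difference 0.68, limma adjusted p = 0.00106). Gdf15, a stress-secreted cytokine, differed by 0.79 (limma adjusted p = 0.0109). Ppp1r15a, which encodes the phosphatase subunit GADD34 that restores translation, differed by 0.63 (limma adjusted p = 0.0163). Asns, asparagine synthetase, was 10.53, 10.59, 10.80 and 10.39 with cytokine against 10.09 and 10.01 in controls, a difference of 0.53 (limma adjusted p = 0.00632). Atf4 itself differed by 0.54 (limma adjusted p = 0.0241), with 10.38, 10.53, 10.48 and 10.04 against 9.74 and 9.89. Atf3, a stress factor of the same family, had a difference of 0.78 with an SE of 0.25 and was not called (limma adjusted p = 0.0862). Ddit3 and Trib3 stayed called without any 1 of the 6 arrays. Without the 24 h control, which leaves the 36 h difference alone, 2 of the 7 were called, without the 36 h control 4, and without the first 36 h cytokine array 5, with 1 other member then called lower. Without the second 36 h cytokine array 9 members were called higher, among them all 7.

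Some enzymes that charge tRNA, several of which ATF4 regulates, were higher too. Among 17 measured synthetases 4 were higher (23.5%, against 2.91% of all genes) and 0 lower, with a median difference of 0.26. Wars1, for tryptophan, which interferon also induces, read 11.33, 11.23, 11.22 and 10.95 with cytokine, against 10.16 and 10.30 in controls (difference 0.95, SE 0.12, limma adjusted p = 3.35e-05). Kars1, for lysine, differed by 0.83 (adjusted p = 0.00845), Sars1, for serine, by 0.51 (adjusted p = 0.00602) and Lars1, for leucine, by 0.40 (adjusted p = 0.015), all from limma. Of the 4, 1 was called without the 24 h control and 2 without the 36 h control. Wars1 stayed called without any 1 array, while Lars1 was lost without either control, the second 24 h or the first 36 h cytokine array (highest adjusted p 0.207, limma). Of 23 amino acid transporters 0 were higher and 1 was lower (4.3%, against 2.27% of all genes). Slc3a2, the heavy chain shared by several of them, differed by 0.33 (limma adjusted p = 0.0705).

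Some chaperones of the ER lumen were lower. Among 34 measured chaperones and factors of ER-associated degradation 6 were lower (17.6%, against 2.27% of all genes) and 1 higher, with a median of -0.11. The 6 were Derl3, Creld2, Sdf2l1, Manf, Hsp90b1 and Dnajb11, known targets of the unfolded protein response. Sdf2l1 read 6.82, 6.87, 6.99 and 6.90 with cytokine, against 7.60 and 7.53 in controls, a difference of -0.68 (SE 0.16, limma adjusted p = 0.0134). Creld2 read 8.33, 8.34, 8.25 and 8.55 with cytokine, against 8.97 and 9.15 in controls, a difference of -0.69 (SE 0.13, limma adjusted p = 0.00208). The groups did not overlap for either gene. Hsp90b1, the ER member of the HSP90 family, fell by 0.45 on the log2 scale (limma adjusted p = 0.0148). Hspa5, the master chaperone BiP, lay between 11.99 and 12.14 with cytokine and at 12.34 and 12.49 in controls, and its difference of -0.35 (SE 0.13) was not called (limma adjusted p = 0.15). The 1 higher member was Ern1, the stress sensor IRE1, at 8.16, 8.16, 8.41 and 7.84 with cytokine against 7.43 and 7.42 in controls (difference 0.72, limma adjusted p = 0.00602). With the 24 h control left out 1 of these 7 genes was still called, with the 36 h control left out 0, and with the first 36 h cytokine array left out 3.

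Genes of ER calcium stores were measured as 14 members, of which 2 were higher (14.3%, against 2.91% of all genes) and 0 lower. Atp2a3, the SERCA3 calcium pump, read 10.30, 10.50, 10.41 and 10.40 with cytokine, against 9.26 and 9.24 in controls, a 2.22-fold increase (SE of the log2 difference 0.13, limma adjusted p = 4.75e-06). The ryanodine receptor Ryr2, which releases calcium from the store, differed by 0.90 (limma adjusted p = 0.0044). Atp2a2, the SERCA2 pump, lay between 11.21 and 11.37 with cytokine and at 11.56 and 11.60 in controls, a difference of -0.27 that was not called (SE 0.08, limma adjusted p = 0.0559). Atp2a3 was called without any 1 of the 6 arrays, and Ryr2 was lost when either control was left out (adjusted p 0.089 and 0.114, limma).

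Mitosis genes formed the largest block of decreases among the lists. Of 49 measured members 34 were lower (69.4%, against 2.27% of all genes) and 0 were higher. The median was -0.63, and each of the 49 differences lay below 0, against 60.8% of all genes. Anln, the cytokinesis scaffold anillin, read 7.50 and 7.23 at 24 h and 7.43 and 7.42 at 36 h with cytokine, against 8.59 and 8.35 in the controls. This was 2.1-fold lower (log2 difference -1.07, SE 0.11, limma adjusted p = 3.04e-06), with no overlap between the groups. Top2a, which untangles DNA before chromosomes part, read 10.06, 10.14, 9.84 and 10.11 with cytokine, against 10.95 and 10.86 in controls (difference -0.87, SE 0.14, limma adjusted p = 0.000334). Bub1b, of the spindle checkpoint, read 7.67, 7.67, 7.72 and 7.68 with cytokine, against 8.50 and 8.57 in controls (difference -0.85, SE 0.13, limma adjusted p = 0.0002). The checkpoint kinase Ttk had a difference of -1.02 (SE 0.21, limma adjusted p = 0.00491).

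The cyclins and kinases that drive entry into mitosis were among the 34. Cdk1 read 8.59, 8.36, 8.41 and 8.37 with cytokine, against 9.11 and 9.23 in controls (difference -0.74, limma adjusted p = 0.00485). Its partners Ccna2 (difference -0.72) and Ccnb1 (-0.65), the cyclin Ccnf (-0.81), the kinases Plk1 (-0.69) and Aurka (-0.69), the spindle factors Tpx2 (-0.67), Spag5 (-0.83), Nuf2 (-0.77) and Kif11 (-0.68), and the activator of the anaphase-promoting complex Cdc20 (-0.72) were called by limma too. So was Foxm1, a transcription factor that many of them depend on, at 8.36, 8.37, 8.23 and 8.35 with cytokine against 8.86 and 8.98 in controls (difference -0.59, limma adjusted p = 0.00364). Mki67, the proliferation antigen, had a difference of -0.74 with an SE of 0.35 and was not called (limma adjusted p = 0.285). Anln, Top2a, Bub1b, Ccnf and Ccna2 stayed called without any 1 array. Of the 34 genes, 12 were called without the 24 h control, 6 without the 36 h control, and between 22 and 29 without 1 cytokine array, at medians from -0.53 to -0.68.

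**Figure D2:**
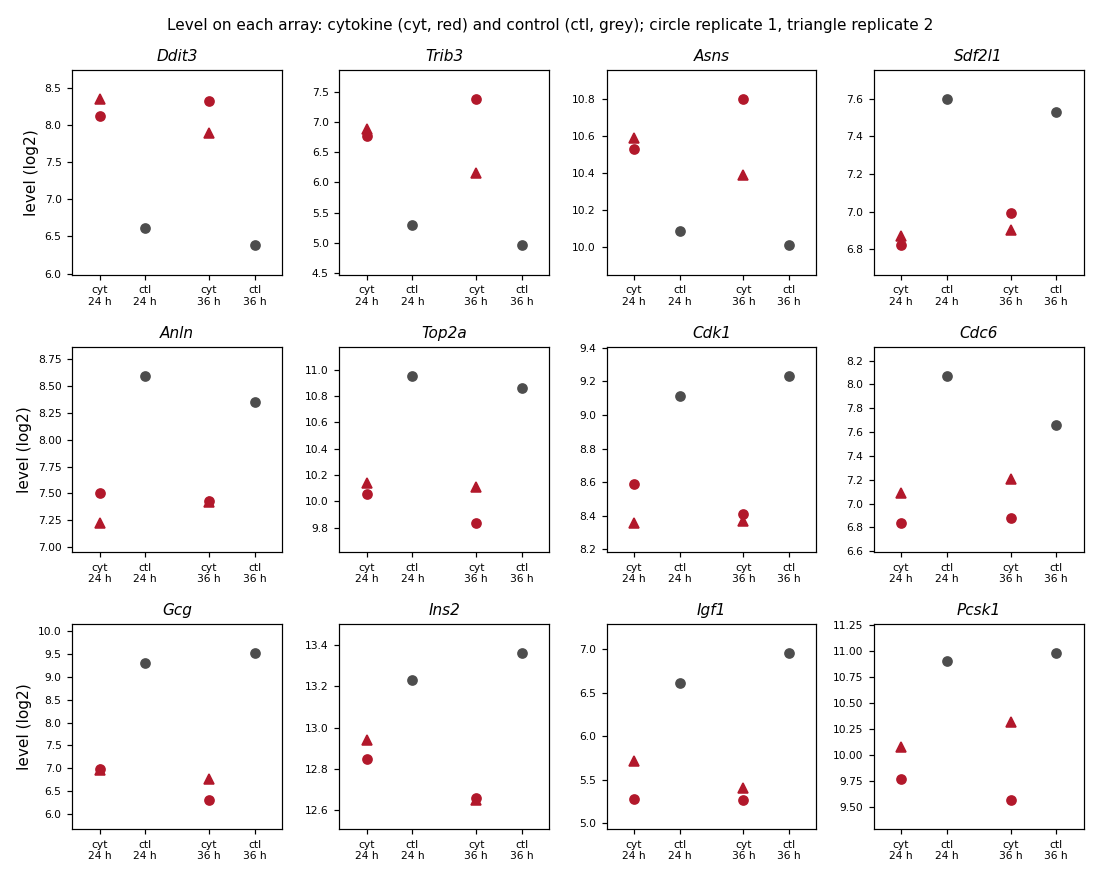
Log2 level of 12 genes on each of the 6 arrays, with cytokine arrays in red left of the grey control array of the same time; circles are replicate 1 and triangles replicate 2, and each panel has its own vertical range. In the panels of Ddit3, Trib3 and Asns the red points lie above both grey points, and in the other 9 panels they lie below.

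A smaller share of DNA replication genes was lower. Of 44 measured members 11 were lower (25.0%, against 2.27% of all genes) and 0 higher. The median was -0.30, and 43 of 44 differences lay below 0, against 60.8% of all genes. Cdc6, which loads the replicative helicase, read 6.84, 7.09, 6.88 and 7.21 with cytokine, against 8.07 and 7.66 in controls (difference -0.86, SE 0.16, limma adjusted p = 0.00159). Orc1, of the origin recognition complex, fell by 0.68 on the log2 scale (limma adjusted p = 0.00175), Pola2, of the primase complex, by 0.63 (limma adjusted p = 0.00577) and Dbf4, the activator of the origin-firing kinase, by 0.63 (limma adjusted p = 0.0117). Mcm5, a helicase subunit, read 9.34, 9.43, 9.31 and 9.21 with cytokine, against 9.99 and 9.75 in controls (difference -0.55, limma adjusted p = 0.0318). Pcna, the polymerase clamp, differed by -0.15 (SE 0.11) and Mcm2, another helicase subunit, by -0.19 (SE 0.11), and neither was called (limma adjusted p = 0.519 and 0.386). E2f1, a driver of this programme, had -0.47 and was not called (limma adjusted p = 0.0507), while its late-acting relative E2f8 was lower by limma (-0.60, adjusted p = 0.00926). Of the 11, 0 were called without the 24 h control and 4 without the 36 h control, and Mcm5 was lost when any 1 of the 6 arrays was left out (highest adjusted p 0.402, limma).

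Regulators of the G1 phase did not move as a block. Among 23 measured members 2 were higher (8.7%) and 1 lower (4.3%), against 2.91% and 2.27% of all genes. Btg1, an antiproliferative factor, read 10.44, 10.55, 10.65 and 10.69 with cytokine, against 9.80 and 9.88 in controls (difference 0.74, limma adjusted p = 0.000944). The quiescence-linked cyclin Ccng2 was higher by 0.67 (limma adjusted p = 0.00786), and the CDK inhibitor Cdkn2c was lower, at 6.63, 6.78, 6.90 and 6.94 against 7.54 and 7.64 (difference -0.78, limma adjusted p = 0.00468). Cdkn1a, which encodes the CDK inhibitor p21, read 9.71, 9.72, 9.33 and 9.36 with cytokine, against 9.35 and 9.39 in controls, a difference of 0.16 (SE 0.23, limma adjusted p = 0.787). Myc differed by 0.09 (SE 0.11) and Ccnd2, the main D-type cyclin of rodent islets, by -0.24 (SE 0.09), neither called (limma adjusted p = 0.752 and 0.16). Of 24 p53 targets 3 were higher (12.5%, against 2.91% of all genes) and 0 lower. They were Fas, Cd82 and Gadd45a, the last a growth arrest factor with a difference of 0.69 (limma adjusted p = 0.015). Ccng2 was not called without the 24 h control (adjusted p = 0.491), Cdkn2c was lost when either control was left out, and Gadd45a when either control or the first 36 h cytokine array was left out (limma). Of 36 ribosomal protein genes and 27 ribosome biogenesis genes 0 were called by limma, with 3 of each list at an unadjusted p under 0.05.

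**Figure D3:**
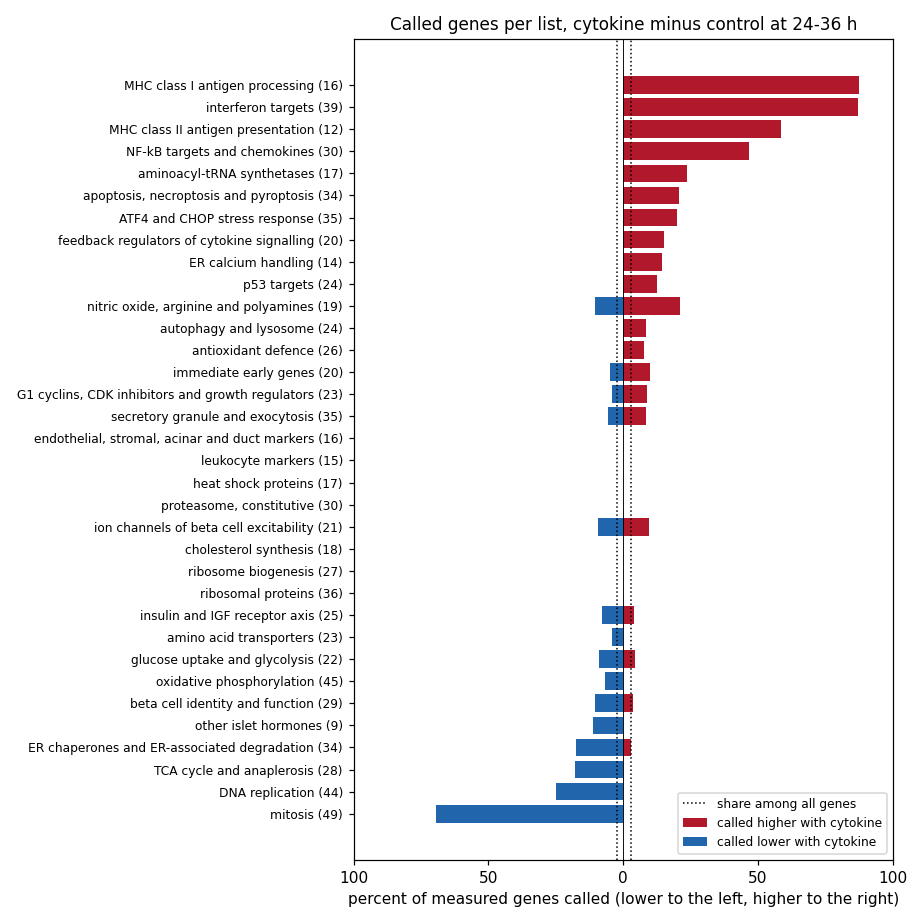
Percent of the measured genes of each list called higher (red, right) or lower (blue, left) with cytokine at 24-36 h; numbers in parentheses are measured genes, and dotted lines mark 2.91% and 2.27%, the shares among all 16587 genes. The MHC class I and interferon lists extend farthest to the right and mitosis farthest to the left.

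Interferon defence and antigen presentation were the strongest increases in the comparison. Of 39 measured interferon targets 34 were higher (87.2%, against 2.91% of all genes) and 0 lower, with a median difference of 2.08. Mx2, an antiviral GTPase, read 11.29, 10.60, 10.50 and 9.14 with cytokine, against 5.10 and 4.87 in controls, 42.2-fold higher (limma adjusted p = 4.4e-07). Igtp, an immunity-related GTPase, was 21.7-fold higher (limma adjusted p = 1.63e-10) and Gbp5, a guanylate-binding protein, 22.9-fold higher (limma adjusted p = 4.44e-07). Irf1, the transcription factor that carries much of the IFN-γ response, read 9.92, 9.42, 9.77 and 9.18 with cytokine, against 6.58 and 6.65 in controls (difference 2.96, limma adjusted p = 7.69e-07). Members of close families such as Gbp, Mx and RT1 can share probes, which makes single values less certain. Some controls, such as those of Gbp5 at 4.69 and 4.41, lay near the leukocyte markers, and folds over such levels are uncertain, since background was not tested.

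MHC class I processing was higher in 14 of 16 measured genes (87.5%, against 2.91% of all genes, median 2.10). Among them were the peptide transporter Tap1 (difference 3.99), the immunoproteasome subunits Psmb8 (3.71) and Psmb9 (3.88), the loading factor Tapbp (2.12) and the light chain B2m (3.32). All 5 stayed called by limma without any 1 array. Class II genes, which beta cells normally keep silent, were higher in 7 of 12 (58.3%, median 0.72). Cd74, the invariant chain, read 11.32, 11.12, 11.63 and 10.89 with cytokine, against 6.02 and 6.26 in controls, 34.2-fold higher (SE of the log2 difference 0.46, limma adjusted p = 3.12e-07). RT1-Da and RT1-Ba, alpha chains of rat class II molecules, differed by 3.81 and 2.36 (limma adjusted p = 9.09e-05 and 0.000301). Of the 7 class II genes 4 were called without the 24 h control and 5 without the 36 h control. The 5 leukocyte markers measured stood at the 10.2 to 26.0 percentile of all genes, as given above. Which cells the class II signal came from was not tested.

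Of 30 NF-kB targets and chemokines 14 were higher and 0 lower (median 0.53), and without the 24 h control 9 of the 14 were called. The 14 were 46.7% of the list, against 2.91% of all genes. Nfkbia, the inhibitor that NF-kB induces against itself, read 9.79, 9.77, 9.52 and 9.44 with cytokine, against 8.23 and 8.02 in controls (difference 1.50, limma adjusted p = 3.23e-09). Csf1, a macrophage growth factor, was 8.17-fold higher (limma adjusted p = 1.25e-09), and Zc3h12a, an RNase that degrades inflammatory transcripts, was 3.9-fold higher (limma adjusted p = 1.12e-06). The chemokine Cxcl1 read 10.05 and 10.11 at 24 h and 8.42 and 8.16 at 36 h with cytokine, against 6.45 and 6.84 in controls (difference 2.54, limma adjusted p = 1.29e-08). Both 36 h cytokine values lay below both 24 h ones. Nos2 read 9.51, 8.44, 8.36 and 7.10 with cytokine, against 6.49 and 6.29 in controls, 3.89-fold higher (SE of the log2 difference 0.39, limma adjusted p = 0.00324). The 4 cytokine arrays spanned over 2 log2 units, and Nos2 was not called without the 24 h control (difference 1.44, limma adjusted p = 0.313).

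Around nitric oxide, 4 of 19 measured genes of arginine and polyamine metabolism were higher (21.1%) and 2 lower (10.5%), against 2.91% and 2.27% of all genes. Ass1, which regenerates arginine for Nos2, read 10.03, 9.76, 9.99 and 9.24 with cytokine, against 8.83 and 8.60 in controls, 2.05-fold higher (limma adjusted p = 0.00186). Arg1, which degrades arginine, differed by 0.69 (limma adjusted p = 0.00585), and Sat1, which acetylates polyamines, by 1.08 (limma adjusted p = 0.0241). Ddah1, which clears methylated arginines that inhibit nitric oxide synthases, read 6.49, 6.40, 6.58 and 6.42 with cytokine, against 7.29 and 7.06 in controls (difference -0.70, limma adjusted p = 0.000414). Without the 24 h control 0 of the 6 called genes of this list were called and without the 36 h control 3.

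Of 34 genes of apoptosis, necroptosis and pyroptosis 7 were higher (20.6%, against 2.91% of all genes) and 0 lower, with a median of 0. Of the 7, 4 were called without the 24 h control and 5 without the 36 h control. Fas, the death receptor, read 7.37, 7.17, 7.03 and 6.82 with cytokine, against 5.68 and 5.80 in controls, 2.56-fold higher (limma adjusted p = 7.07e-05). Casp4, the inflammatory caspase, read 6.81, 6.46, 7.43 and 5.80 with cytokine, against 4.00 and 3.74 in controls (difference 2.76, limma adjusted p = 0.000119). Its controls lay as low as the leukocyte markers, and whether they were above background was not tested, so no fold is given. Mlkl, the executor of necroptosis, was 3.29-fold higher (limma adjusted p = 2.65e-06). Birc3, an inhibitor of apoptosis that NF-kB induces, was 3.65-fold higher (limma adjusted p = 1.71e-07). Its controls, at 4.64 and 5.32, also lay near the leukocyte markers, so this fold is uncertain. The pore-forming Bak1 and Gsdmd differed by 0.88 and 0.82 (limma adjusted p = 0.00343 and 0.00563), and both were lost when either control was left out (adjusted p 0.0747 to 0.128, limma). The other 4 named here stayed called without any 1 array.

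The steepest single decrease was in a hormone gene, Gcg. Of 9 measured islet hormone genes other than the insulins 1, Gcg, was lower (11.1%, against 2.27% of all genes). In that list 0 were higher, and the median was -0.08. Gcg, the glucagon gene of alpha cells, which these cells also transcribe, read 6.98 and 6.96 at 24 h and 6.31 and 6.77 at 36 h with cytokine, against 9.30 and 9.52 in controls. This was 6.3-fold lower (log2 difference -2.65, SE 0.22, limma adjusted p = 8.58e-08), with no overlap between the groups, and it was called without any 1 array. Ins2, the second rodent insulin gene, read 12.85, 12.94, 12.66 and 12.65 with cytokine, against 13.23 and 13.36 in controls, 1.43-fold lower (difference -0.51, SE 0.10, limma adjusted p = 0.00392). Ins1 read 14.18, 14.19, 14.21 and 13.49 with cytokine, against 14.29 and 14.40 in controls, and was not called (difference -0.33, SE 0.14, limma adjusted p = 0.206). Npy, the neuropeptide Y gene, had a difference of -1.31 (limma adjusted p = 0.0261), which was called in 2 of the 6 fits that left out 1 array (highest adjusted p 0.281). Ins2 was not called without the 36 h control (-0.33, limma adjusted p = 0.368).

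Of 29 measured genes of beta cell identity and function 3 were lower (Pcsk1, Ins2 and Trpm5) and 1 was higher (Gjd2), with a median of -0.07. That was 10.3% lower and 3.4% higher, against 2.27% and 2.91% of all genes. Pcsk1, the convertase that cleaves proinsulin, read 9.77, 10.08, 9.57 and 10.32 with cytokine, against 10.91 and 10.98 in controls, 2.01-fold lower (limma adjusted p = 0.00676). At each time the second cytokine replicate was the higher one. The transcription factors Mafa and Nkx6-1 differed by -0.10 (SE 0.17) and -0.41 (SE 0.16), and Slc2a2 by 0.04 (SE 0.09), none called (limma adjusted p = 0.837, 0.178 and 0.86). Glp1r, the incretin receptor, read 8.65, 8.92, 8.72 and 8.97 with cytokine, against 8.12 and 8.08 in controls, but did not pass (difference 0.72, SE 0.22, limma adjusted p = 0.0728). Among 35 genes of granules and exocytosis 3 were higher (8.6%) and 2 lower (5.7%). Sytl4, the granule protein granuphilin, was lower at 9.13, 9.46, 8.76 and 9.50 against 10.12 and 10.21 (difference -0.96, limma adjusted p = 0.00405), Vgf, a granule peptide precursor, was lower by 0.58 (limma adjusted p = 0.00188), and the priming factor Cadps2 was higher by 0.70 (limma adjusted p = 0.00299). Without the 36 h control 0 of the 4 called identity genes and 1 of the 5 called granule genes were called, and without the 24 h control 1 and 0.

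In the IGF axis 3 of 25 measured genes were called (1 higher and 2 lower), against 5.18% of all genes. Igf1, a growth factor for beta cells, read 5.28, 5.71, 5.27 and 5.41 with cytokine, against 6.61 and 6.95 in controls, 2.57-fold lower (limma adjusted p = 0.00271). The cytokine values of Igf1 lay just above the leukocyte markers, and background was not tested, so the fold is uncertain. Igfbp5, a secreted IGF binding protein, read 6.49, 6.12, 6.13 and 6.12 with cytokine, against 7.40 and 7.62 in controls, 2.45-fold lower (limma adjusted p = 1.15e-05). Igf1r, the receptor, was higher by 0.52 (limma adjusted p = 0.0102). Other secreted or extracellular products among the largest decreases were Enpp2, the enzyme autotaxin (difference -1.28, limma adjusted p = 2.25e-06), and the matrix protein Fbn2 (-1.03, limma adjusted p = 2.63e-05). Igf1 was not called without the 36 h control (adjusted p = 0.162) nor Igf1r without the 24 h control (adjusted p = 0.533), both by limma.

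Called genes of energy metabolism were mostly lower. Of 28 TCA cycle and anaplerosis genes 5 were lower (17.9%, against 2.27% of all genes) and 0 higher. The 5 were Fh, Me1, Gpd2, Idh3a and Sdhd, with differences from -0.32 to -0.47. Of 45 oxidative phosphorylation genes 3 were lower, Sdhd among them, and 0 higher, and at most 1 of the 3 was called when any 1 array was left out. Those 3 were 6.7% of their list. Gpd2, the glycerol phosphate shuttle enzyme of beta cells, read 9.70, 9.62, 9.55 and 9.60 with cytokine, against 10.03 and 10.15 in controls (difference -0.47, limma adjusted p = 0.00174). Among 22 genes of glucose uptake and glycolysis Pfkp, a phosphofructokinase, was higher (0.76, limma adjusted p = 0.00285), and Pkm, pyruvate kinase, and Ldhb, a lactate dehydrogenase subunit, were lower (-1.06 and -0.57, limma adjusted p = 0.00676 and 0.0495). In that list 4.5% were thus higher and 9.1% lower, against 2.91% and 2.27% of all genes. For Pkm the difference was -1.54 at 24 h and -0.58 at 36 h. Each of the 5 TCA genes was lost when the 36 h control was left out, and 1 of them was called without the 24 h control.

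Set against neighbouring times, the mitosis, DNA replication, ATF4 and CHOP, and tRNA synthetase lists had medians farthest from 0 at 24 or 36 h. The mitosis median was -0.26 at 12 h, -0.53 at 24 h, -0.68 at 36 h, -0.42 at 48 h, -0.28 at 60 h and -0.18 at 72 h. DNA replication had -0.22 at 12 h, -0.40 at 24 h, -0.28 at 36 h and -0.15 at 48 h. ATF4 and CHOP genes had a median of 0.10 at 12 h, 0.30 at 24 h, 0.10 at 36 h and 0.15 at 48 h, and that of the tRNA synthetases 0.02, 0.28, 0.26 and 0.05 at the same times. Other stress and growth lists did not share this shape: the ER chaperones had their lowest median, -0.25, at 72 h, the p53 targets their highest, 0.29, at 12 h, and ribosome biogenesis its lowest, -0.23, at 12 h. The interferon list had its highest median, 3.81, at 10 h, against 2.36 at 24 h and 1.56 at 36 h. These medians are descriptions, with 1 control array at each of these times.

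**Figure D4:**
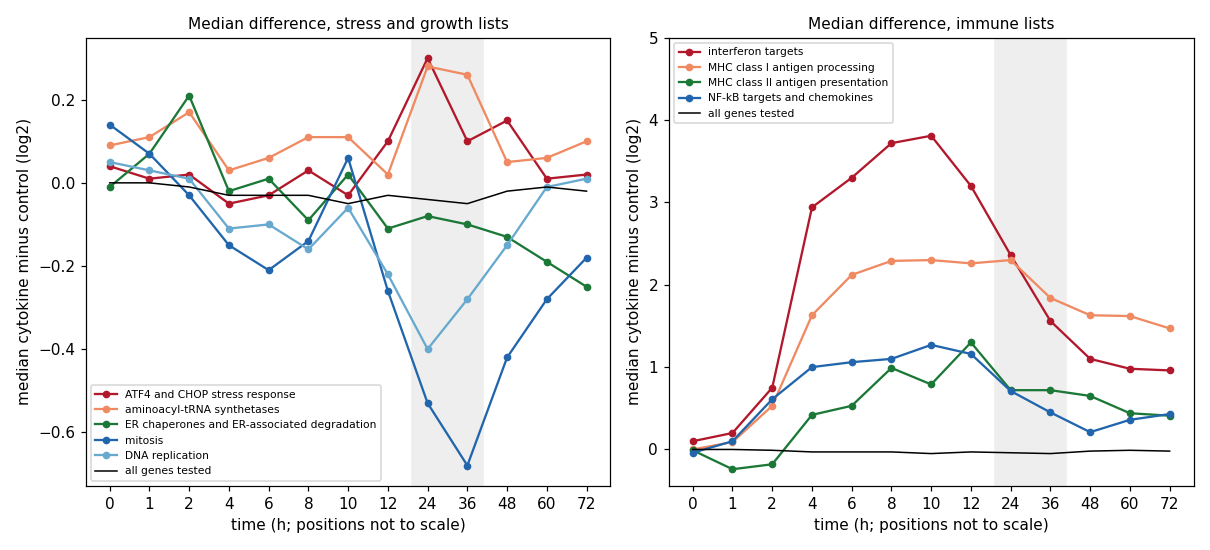
Median cytokine minus control difference (log2) of each list at 13 times, stress and growth lists on the left and immune lists on the right, with 24 and 36 h shaded and all genes in black. The mitosis line is lowest at 36 h (-0.68) and the interferon line highest at 10 h (3.81).

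Gene by gene, few of these shifts in time passed a test. The 24-36 h difference minus the 8-12 h difference (8 further arrays, 5 cytokine and 3 control) was called for 31 of 16587 genes (0.187%), 7 higher (0.0422%) and 24 lower (0.145%). In the stress lists 0 genes were called: Ddit3 averaged 1.68 at 24-36 h and 0.77 at 8-12 h (difference of differences 0.91, limma adjusted p = 0.134), and Ern1 0.72 and -0.24 (0.96, limma adjusted p = 0.0567). In the mitosis list 1 gene was called, Anln, at -1.07 for 24-36 h and -0.08 for 8-12 h (-0.99, limma adjusted p = 0.00362). Gcg was further down at 24-36 h, with -2.65 against -0.78 (-1.88, limma adjusted p = 0.00362), as was Enpp2, with -1.28 against -0.38 (-0.90, limma adjusted p = 0.0367). Several inflammatory genes had smaller increases at 24-36 h than at 8-12 h. Cxcl9 had 1.41 against 4.42 (-3.01, limma adjusted p = 1.19e-05), Isg15 1.34 against 3.82 (-2.48, limma adjusted p = 0.00793), Tnf 1.26 against 2.82 (-1.56, limma adjusted p = 0.000259) and Icam1 0.95 against 2.35 (-1.40, limma adjusted p = 8.24e-05). Without the 24 h control the 24-36 h differences of Cxcl9, Isg15 and Icam1 were 0.68, 0.83 and 0.54 and none was called (limma adjusted p = 0.425, 0.585 and 0.135), and Isg15 was also lost without the first 36 h cytokine array. Drd2, a dopamine receptor, and Sez6l, a neuronal membrane protein, were among the 7 in the other direction, at 1.24 against -0.30 and 1.28 against -0.05 (limma adjusted p = 0.0153 and 0.00914). For Cdkn1a 0.16 stood against 1.42, and the change was not called (limma adjusted p = 0.111). Without the 36 h control 1 gene was called in place of 31.

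Against 48-72 h (9 further arrays, 6 cytokine and 3 control), 5 genes were called (0.0301%), 1 higher (0.00603%) and 4 lower (0.0241%). The 48-72 h minus 24-36 h change was -1.32 for Ddit3 (0.36 at 48-72 h, 1.68 at 24-36 h, limma adjusted p = 0.0419), -1.16 for the lymphocyte activation antigen Cd69, -1.55 for Cxcl1 and -1.61 for the interferon target Ifi44. Crabp1, which binds retinoic acid, was the 1 gene in the other direction, at 0.25 for 48-72 h and -0.82 for 24-36 h (1.07, limma adjusted p = 0.0419). In the mitosis list 0 genes were called, and the list's median change was 0.31. This and the previous comparison share the 24 and 36 h arrays. Without the 24 h control 0 genes were called, and likewise without the 72 h control, either 24 h cytokine array or the second 48 or 60 h cytokine array. Without the first 36 h cytokine array 1 gene was called, and without the 36 h control, the 60 h control or the second 72 h cytokine array 2.

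**Figure D5:**
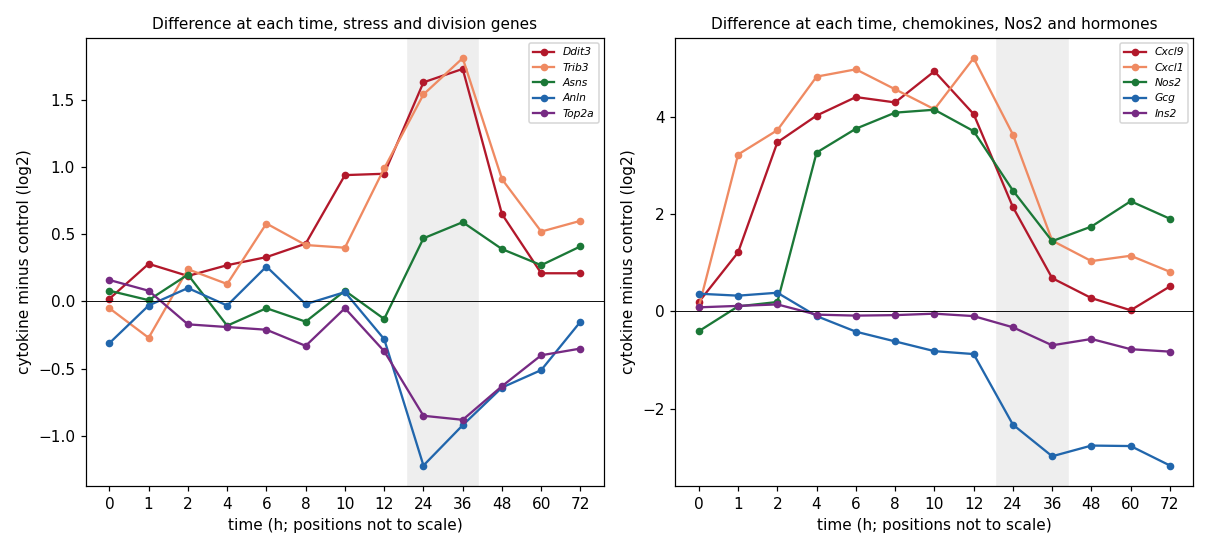
Cytokine minus control difference (log2) at 13 times for 5 stress and division genes (left) and 5 chemokine, Nos2 and hormone genes (right), with 24 and 36 h shaded. Ddit3 and Trib3 are highest at 36 h (1.73 and 1.81), Anln is lowest at 24 h (-1.22), and Gcg is lowest at 72 h (-3.17).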

How the data were processed

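RNA of INS-1E cells was measured on 40 Affymetrix Rat ST arrays. The authors deposited log2 expression values per probe set, from 2.27 to 14.46; how they were background-corrected and normalized is not stated in the labels used, and no further normalization was applied. The medians of the 6 arrays compared lay between 6.58 and 6.62, and their pairwise correlations between 0.982 and 0.995. Precision is limited by how few arrays there are. The platform annotation named 1 gene for 16592 of the 19239 probe sets and none for 2647; 3326 symbols were updated, and 16587 genes were tested after 5 symbols with several probe sets were reduced to 1 each. Promoter sequences are from RefSeq (GRCr8).

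A cell-means model with 1 coefficient per treatment and time was fitted to all 40 arrays with limma 3.58.1 (R 4.3.3), leaving 14 residual and 6.05 prior degrees of freedom. The 24-36 h value is the mean of both differences. A lone control array is assumed to vary like the groups of 2. Folds are 2 to the power of the log2 difference, and Benjamini-Hochberg adjustment ran over all genes, with calls under 0.05. The fit was run on simulated data with independent errors on each array, which cannot reveal deviations that arrays share. Named genes are the 15 largest called differences in each direction with every cytokine array on the same side of its control, all members of the ATF4 and CHOP, mitosis, DNA replication, G1 and beta cell identity lists, of each other list up to 6 in each direction by smallest p, the 8 largest called in each direction in other comparisons, and Nos2, Ins1, Ins2, Cxcl10, Irf1, Fas, Hspa5, Atp2a2 and Slc2a2. Members and lists were chosen with earlier results of these data known. Alternatives were a replicate block, quantile normalization, median centring, a filter on dim genes, trended and robust moderation, array weights, the comparison's own arrays, replicate 1 arrays, and each array left out.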

Additional observations from a re-analysis of the deposited data

Results flagged for a closer look

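The cytokine difference at 24-36 h differed from that at 8-12 h, by a test of the change itself (limma, adjusted over 16587 genes), for 14 genes named here. The change was -0.99 for Anln (adjusted p = 0.00362), -1.88 for Gcg (adjusted p = 0.00362) and -0.90 for Enpp2 (adjusted p = 0.0367), which were further below control at 24-36 h. Increases were smaller at 24-36 h for Cxcl9 (-3.01, adjusted p = 1.19e-05), Isg15 (-2.48, adjusted p = 0.00793), Cxcl1 (-2.10, adjusted p = 0.000181), Cd69 (-1.76, adjusted p = 0.000181), Cxcl11 (-1.58, adjusted p = 0.0403), Tnf (-1.56, adjusted p = 0.000259), Icam1 (-1.40, adjusted p = 8.24e-05), Cxcl10 (-1.33, adjusted p = 0.00914) and the glycolytic gene Pfkp (-1.27, adjusted p = 0.00362). Drd2 and Sez6l changed by 1.54 and 1.33 in the other direction (adjusted p = 0.0153 and 0.00914). Nearly all calls of this comparison were lost without the 36 h control, as given above.

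The 48-72 h difference differed from that at 24-36 h for Ifi44 (-1.61, adjusted p = 0.0243), Cxcl1 (-1.55, adjusted p = 0.0243), Ddit3 (-1.32, adjusted p = 0.0419), Cd69 (-1.16, adjusted p = 0.0419) and Crabp1 (1.07, adjusted p = 0.0419). All of these calls were lost when any 1 of several arrays was left out, as given above. Both sets of changes use the same 24 and 36 h arrays.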

How the results depend on the processing

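At 24-36 h the 860 calls became 203 to 753 when 1 array was left out, with 203 without the 24 h control, 357 without the 36 h control and 536 without the first 36 h cytokine array; those fits have fewer arrays. The 24 h count ranged from 172 to 243 and the 36 h count from 69 to 207 with 1 cytokine array left out, the 24-36 h minus 8-12 h count from 1 to 34, the 48-72 h minus 24-36 h count from 0 to 6, and the 36 h minus 24 h count stayed at 0. A lone control could not be left out of a single-time comparison, and replicate 1 arrays alone gave no test of single times. Replicate numbers were checked as pairs: over 91 pairs of groups the replicate 1 minus 2 deviations correlated at -0.17 to 0.43 (median 0.21, 68 of 91 over 0.1), with 0.26 between cytokine at 24 and 36 h. Equal numbers thus tended to deviate together, a hint from the data, but not in every pair, and no label says what a number marks, so they were not taken as pairs. Both controls are replicate 1. With the replicate block 1125 genes were called at 24-36 h, 543 at 24 h, 343 at 36 h and 72 for 24-36 h minus 8-12 h. The comparison's own arrays gave 218 genes at 24 h and 0 for 48-72 h minus 24-36 h, replicate 1 arrays gave 0 for both changes between times, and array weights gave 47 for 24-36 h minus 8-12 h. Of 128 called genes named here, 59 were called without the 24 h control, 76 without the 36 h control, 106 to 124 without 1 cytokine array, 105 on replicate 1 arrays, 116 on the comparison's own arrays and 124 to 128 under the block, quantile normalization, centring, moderation and weights. None of the 128 reversed under these. Uncalled genes that changed sign were Cdkn1a (-0.05 without the 24 h control, range to 0.37), Slc2a2 (-0.06 without the 24 h control, range to 0.14) and Mafa (0.02 without the first 36 h cytokine array, range to -0.21). Leaving out a lone control drops its time from the comparison. Without the 24 or 36 h control, the 24-36 h calls are thus those of the other time tested alone. Beyond that, the cause of these movements was not tested. On the deposited values, depth has no direct counterpart, and genes near the bottom of the range, such as Olr220 and Ugt1a3, were not separated from background.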

Other observations

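Some other lists held few called genes. Of 24 autophagy and lysosome genes 2 were higher (8.3%, against 2.91% of all genes) and 0 lower. Optn, an autophagy receptor, read 8.26, 8.16, 8.23 and 7.60 with cytokine, against 6.72 and 6.81 in controls (difference 1.30, limma adjusted p = 1.06e-06), and Lamp2, a lysosomal membrane protein, differed by 0.92 (limma adjusted p = 0.00208). Of 26 antioxidant genes 2 were higher (7.7%): Sod2, the mitochondrial superoxide dismutase (0.75, limma adjusted p = 0.00422), and Hmox1, heme oxygenase 1 (0.80, limma adjusted p = 0.0166). Among 20 immediate early genes 2 were higher (10.0%) and 1 lower (5.0%, against 2.27% of all genes). Nr4a1, an orphan nuclear receptor, was lower at 5.35, 5.28, 5.39 and 5.60 against 6.18 and 6.38 (difference -0.88, limma adjusted p = 0.00676), while Ier3 was higher (0.74, limma adjusted p = 0.00818). Among 21 channel genes 2 were higher and 2 lower (9.5% each, against 2.91% and 2.27% of all genes). One of the higher was the calcium-activated potassium channel Kcnn3 (0.74, limma adjusted p = 0.00109). Optn was called without any 1 of the 6 arrays, Sod2, Lamp2 and Kcnn3 in 5 of the 6 fits that left out 1, Nr4a1 and Ier3 in 4, and Hmox1 in 2 (highest adjusted p 0.345, limma). Without the 24 h control 0 of the 2 antioxidant genes were called.

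By limma 0 genes were called in the lists of cholesterol synthesis (18 genes, 2 at an unadjusted p under 0.05), the constitutive proteasome (30 genes, 4) and heat shock proteins (17 genes, 3).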
